A study of Mus musculus with 32 samples.

Results

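The 10 genes described here encode subunits of the 3 replicative DNA polymerase complexes, the enzymes that aphidicolin (APH) inhibits. They are Pola1, Pola2, Prim1 and Prim2 of polymerase α-primase, Pold1, Pold2 and Pold3 of polymerase δ, and Pole, Pole2 and Pole3 of polymerase ε. They were chosen by gene symbol and make up 10 of the 39017 genes in the count table. All 10 had enough reads to be tested. Their counts ran from 280 (Pole2) to 5077 (Pole) in a sample.

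Polymerase α-primase starts every new DNA strand: its primase subunits lay down a short RNA primer and Pola1, the catalytic subunit, extends it with DNA. Polymerase ε then copies mainly the leading strand and polymerase δ mainly the lagging strand. Aphidicolin, a fungal diterpenoid, binds the active sites of Pola1, Pold1 and Pole in competition with incoming nucleotides, so that replication forks slow or stall. ATM is a kinase best known for signalling DNA double-strand breaks, and ATMIN, a partner of ATM with zinc fingers, acts as a transcription factor.

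RNA was sequenced from 4 lines of mouse embryonic fibroblasts (MEFs): 2 knock-out lines, 1 for ATM and 1 for ATMIN, each with a wild-type counterpart (wtATM for the first, wtATMIN for the other). Every line received 1 µM APH or DMSO alone for 24 h or 4 h, and each of these 16 groups had 2 samples, 32 in all. The labels give no strain, embryo or clone for a line, nor whether the pair of samples in a group came from separate cultures. P-values therefore measure the spread between these samples, and with 1 line of each kind a genotype and its line cannot be told apart.

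Between 9321329 and 21020662 reads per sample were counted on genes. Atm ran from 17.8 to 45.4 CPM (read counts relative to library size, scaled by trimmed mean of M-values) in the 8 ATM knock-out samples, against 43.1 to 65.1 CPM in the 8 wtATM samples. Atmin ran from 3.77 to 6.76 CPM in the 8 ATMIN knock-out samples, against 20.4 to 32.9 CPM in the 8 wtATMIN samples. Counts over a whole gene do not check a deletion of part of it. Of 10 fibroblast markers, each reached 1 CPM in some ATM knock-out sample, and 2 (Thy1 and Fap) stayed under 1 CPM in every sample of the other 3 lines. Marker sums of other cell types differed by line. The 6 epithelial markers summed to 94.7 to 240.8 CPM in wtATM, where Epcam, Cdh1, Cldn4 and Cldn7 stayed under 1 CPM, and to at most 3.36 CPM in the other lines. The 5 muscle markers summed to 17.8 to 29.3 CPM in wtATM and at most 2.56 CPM elsewhere, and the 5 neural markers to 5.85 to 11.6 CPM in wtATM and 29.6 to 70.4 CPM elsewhere. The 4 adipocyte markers summed to 49.4 to 104.2 CPM in the ATMIN knock-out line and at most 6.78 CPM elsewhere, with Adipoq, Plin1 and Cidec under 1 CPM in every sample. The ATM knock-out APH 4 h samples stood apart: replicate 2 had the fewest reads and showed reads on 406 of 1434 receptor genes, compared with 155 in replicate 1 and 17 to 95 in any other group's samples. Replicate 1 had the highest level of Gm42418, a gene that overlaps ribosomal RNA sequence, at 97840 CPM, against 24350 CPM in replicate 2 and 13780 to 41270 CPM in the other 4 h samples. The log-scale correlation of this pair was 0.981, against 0.991 to 0.994 in the other groups. Calls of the 10 genes that were lost without 1 of these samples are marked as such. Counts over gene lists and medians that involve this pair were taken with both of its samples.

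On GRCm38, with GENCODE M21 genes, the α-primase genes lie at chrX:93304767-93632155 (Pola1, minus strand), chr19:5940542-5964202 (Pola2, minus), chr10:128015168-128030037 (Prim1, plus) and chr1:33453810-33669795 (Prim2, minus). The δ genes lie at chr7:44532746-44548849 (Pold1, minus), chr11:5872180-5878292 (Pold2, minus) and chr7:100082111-100121565 (Pold3, minus). The ε genes lie at chr5:110286306-110337474 (Pole, plus), chr12:69201773-69228195 (Pole2, minus) and chr4:62522649-62525068 (Pole3, minus). The genes of a complex are thus scattered, and Pold1 and Pold3 are the only members on the same chromosome.

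The promoter windows of the genes are shown as a description, and their part in the RNA values was not tested. RefSeq (GRCm38.p6) gave windows from 250 bases before to 50 bases after the RefSeq start for 8 of the 10 genes, 9 windows in all, with a second one for Pold2. E2F-like words (TTTCCCGC, TTTCGCGC, TTTGCCGC or TTTGGCGC, on either strand), the kind of site that E2F factors bind at S-phase genes, were in 4 of these 9 windows. They were in 2.26% of all 32851 windows. The 4 matches are printed 5′ to 3′ on the gene's strand, with the match in capitals: Pola1 at chrX:93632275-93632304 (minus strand, 138 to 131 bases before the start), Pold1 at chr7:44548766-44548787 (minus strand, bases 40 to 47 after it), Pold3 at chr7:100121467-100121496 (minus strand, bases 18 to 25) and Pole2 at chr12:69228162-69228191 (minus strand, bases 11 to 18).
Pola1: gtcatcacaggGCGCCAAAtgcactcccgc
Pold1: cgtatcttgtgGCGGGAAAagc
Pold3: gagcgaagctgTTTCCCGCcggcgggagct
Pole2: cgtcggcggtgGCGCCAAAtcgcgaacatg

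CCAAT (on either strand), the box that NF-Y binds, was in windows of 3 of the 8 genes, against 37.4% of all windows. The cell cycle homology words TTTGAA or TTCGAA were in 1 member window, against 19.2% of all windows. Such matches are descriptions of letters and not of bound sites. Pold2 was the gene called in all 4 lines at 24 h, and the first 214 bases of its RefSeq window (chr11:5878293-5878506, minus strand) are printed, up to the base before the GENCODE M21 start, which lies upstream of the RefSeq start. The capitals mark ATTGG, the reverse of CCAAT, 47 to 43 bases before the RefSeq start.
Pold2: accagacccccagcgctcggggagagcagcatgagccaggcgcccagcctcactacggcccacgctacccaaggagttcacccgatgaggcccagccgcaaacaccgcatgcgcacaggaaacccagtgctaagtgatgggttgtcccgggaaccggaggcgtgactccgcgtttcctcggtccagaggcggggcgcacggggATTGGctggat

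**Figure D1:**
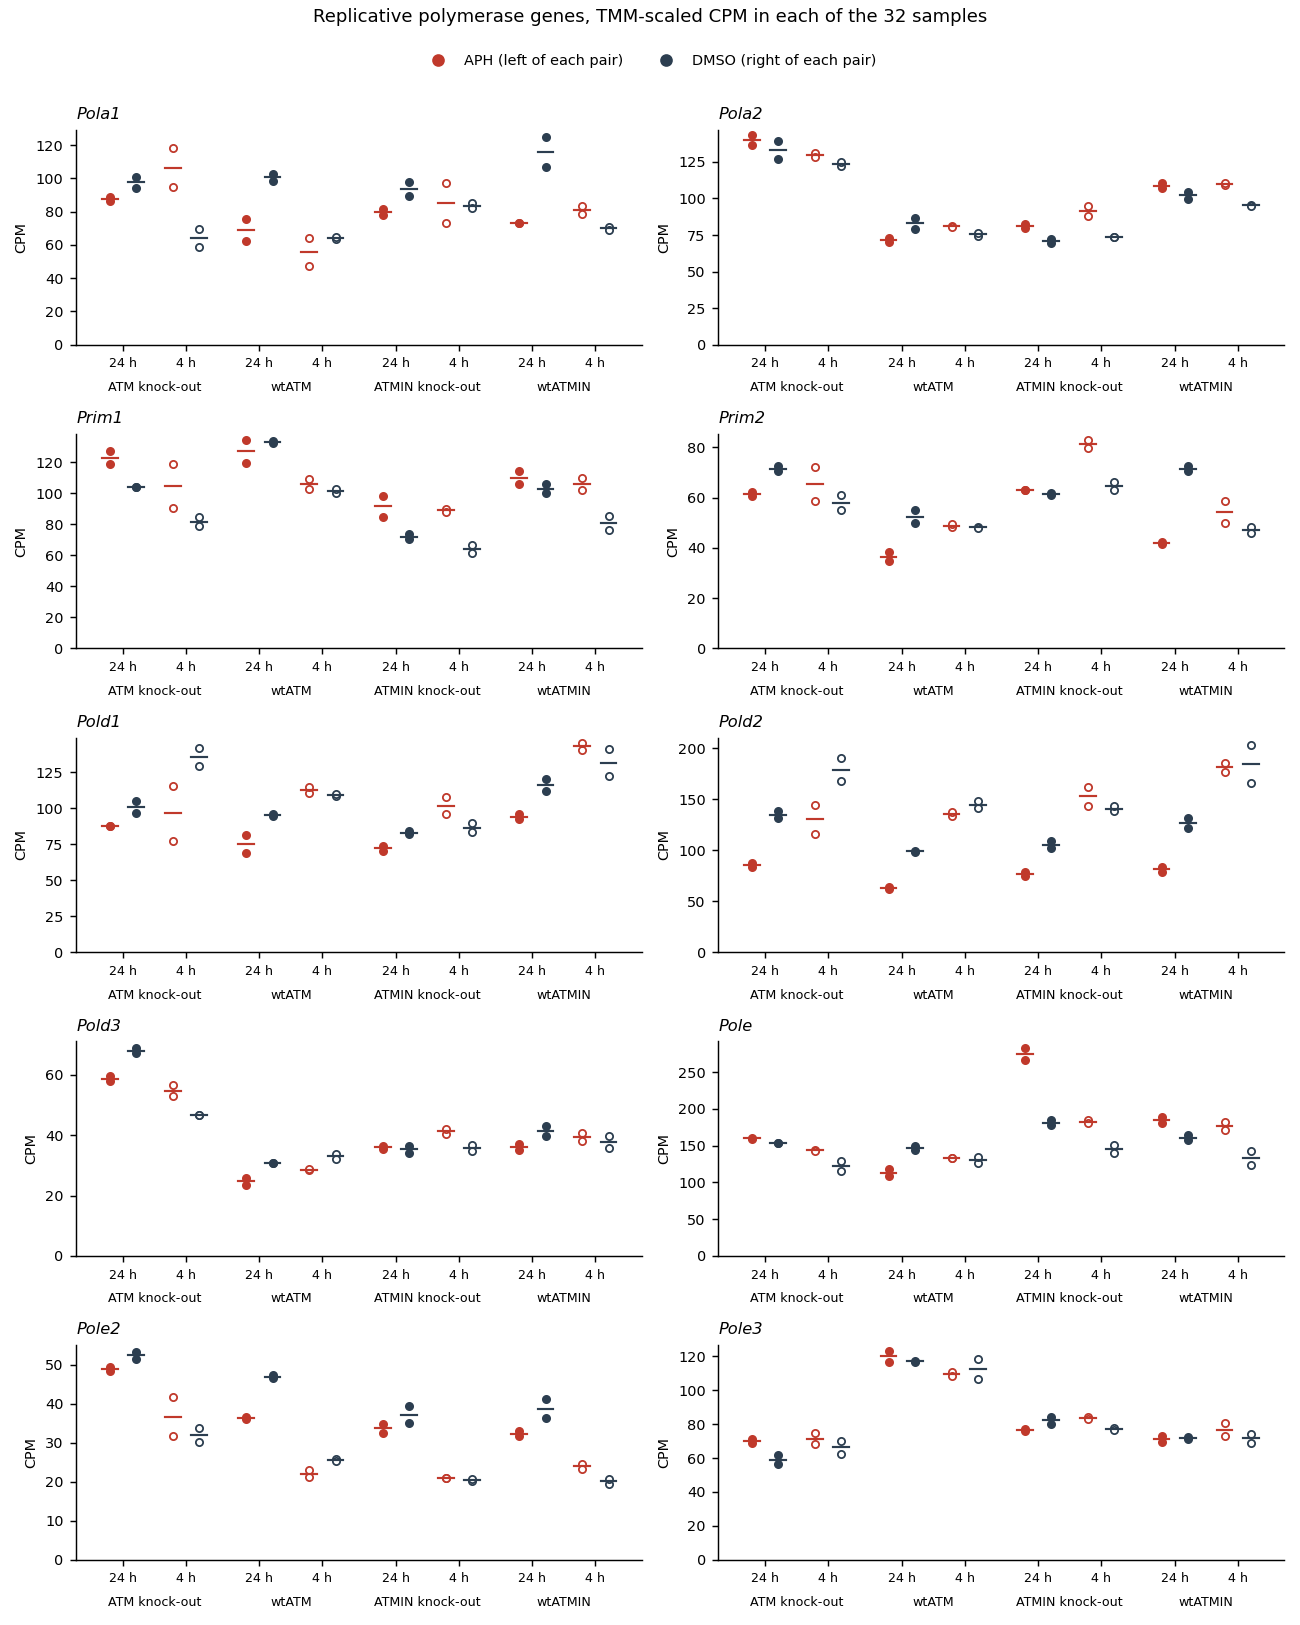
Normalised CPM of the 10 genes in each of the 32 samples, by line, with 24 h left of 4 h and APH left of DMSO. Filled points are 24 h samples, open points are 4 h samples, and the horizontal line is the mean of the 2 samples of a group; Pold2 at 24 h is lower with APH than with DMSO in every line, with the APH samples between 62.3 and 88.0 CPM and the DMSO samples between 98.5 and 138.6 CPM.

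After 24 h of APH, Pold2 RNA was lower, and called, in all 4 lines. Pola1, Pold1 and Pole2 had negative log2 fold changes in all 4 lines but were called only in wtATM and wtATMIN. The sign of each of the other subunits differed between lines. In wtATM 8 of the 10 genes fell. In wtATMIN 5 fell and Pole rose, in ATM knock-out cells 2 fell and 2 rose, and in the ATMIN knock-out line Pold2 fell and 3 genes rose. Of the 22 calls of these genes at 24 h, 14 stayed called under every other setting tried (scaling, filter, compared groups alone, replicate block and DESeq2). Calls come from the quasi-likelihood test of edgeR, with p adjusted by Benjamini-Hochberg over 18484 genes, and an adjusted p under 0.05 counts as called. Among all these genes, 15.7% were called higher and 12.2% lower in ATM knock-out cells, 14.4% higher and 14.3% lower in wtATM, 14.3% higher and 15.8% lower in the ATMIN knock-out line, and 13.6% higher and 15.3% lower in wtATMIN. In each line fewer of all genes were called when any 1 sample of its comparison was left out. The median log2 fold change of the 10 genes was −0.13 in ATM knock-out cells, −0.36 in wtATM, −0.04 in the ATMIN knock-out line and −0.23 in wtATMIN. The median of all genes lay between 0 and 0.01 in each line. With library size as the only scaling, 3131 genes were called higher and 1862 lower in wtATM, 3612 and 1916 in the ATMIN knock-out line, and 3434 and 1904 in wtATMIN. These are bulk samples, so fewer cells of a type and less RNA per cell cannot be told apart.

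The catalytic subunit of polymerase α, Pola1, fell at 24 h in both wild-type lines. In wtATM its level was 75.3 and 62.3 CPM with APH, against 98.6 and 102.5 CPM with DMSO. In wtATMIN it was 73.1 and 73.2 CPM with APH, against 106.9 and 125.1 CPM with DMSO. The groups did not overlap in either line, and the log2 fold changes were −0.54 ± 0.13 (SE, adjusted p = 0.00234, edgeR) in wtATM and −0.66 ± 0.13 (adjusted p = 0.000312) in wtATMIN. The wtATM call was lost without APH replicate 2 (−0.42). In the knock-out lines Pola1 was 88.5 and 86.6 CPM with APH, against 94.1 and 101.0 CPM with DMSO (ATM), and 81.6 and 77.7 CPM with APH, against 89.5 and 97.8 CPM with DMSO (ATMIN). The direction was the same there, but neither change passed the test (−0.16, adjusted p = 0.407, and −0.23, adjusted p = 0.185). The knock-out and wild-type responses of Pola1 were not called different in either pair. The difference was 0.39 ± 0.18 (adjusted p = 0.3, edgeR) in the ATM pair and 0.43 ± 0.18 (adjusted p = 0.287) in the ATMIN pair.

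Prim2, the large primase subunit that hands the primer to Pola1, fell in the same lines. In wtATM it was 34.7 and 38.5 CPM with APH, against 49.8 and 55.2 CPM with DMSO, a log2 fold change of −0.52 ± 0.09 (adjusted p = 1.67e-05). In wtATMIN it was 41.4 and 42.3 CPM with APH, against 70.5 and 72.5 CPM with DMSO. That is a log2 fold change of −0.77 ± 0.08 (adjusted p = 7.11e-09), or 0.585 times the DMSO level, the lowest ratio among the 10 genes at 24 h. The authors' deposited table gives Prim2 −0.75 (SE 0.08, adjusted p = 3.07e-19) for the same wtATMIN comparison. In ATM knock-out cells Prim2 was 62.4 and 60.8 CPM with APH, against 72.5 and 70.6 CPM with DMSO, and just missed the threshold (−0.22 ± 0.08, adjusted p = 0.0507). In the ATMIN knock-out line the level was 62.9 CPM in both APH samples, against 61.0 and 62.0 CPM with DMSO (0.03, adjusted p = 0.825).

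The other α-primase subunits did not follow Pola1 and Prim2. Prim1, the catalytic primase subunit, was 127.1 and 119.1 CPM with APH, against 104.0 and 104.2 CPM with DMSO in ATM knock-out cells (0.24 ± 0.09, adjusted p = 0.0342, edgeR), a call lost without any 1 of these 4 samples (0.19 to 0.29). In the ATMIN knock-out line Prim1 was 98.7 and 84.9 CPM with APH, against 70.6 and 73.6 CPM with DMSO (0.35 ± 0.09, adjusted p = 0.00249), and the call was lost without APH replicate 1 (0.24). In the wild-type lines Prim1 differed by −0.07 (wtATM) and 0.09 (wtATMIN) and was not called. Pola2, the regulatory subunit beside Pola1, rose in the ATMIN knock-out line (0.20 ± 0.07, adjusted p = 0.0196) and fell in wtATM (−0.21 ± 0.06, adjusted p = 0.0126). The Pola2 call in the ATMIN knock-out line was lost without DMSO replicate 2 (0.17), APH replicate 1 (0.18) or APH replicate 2 (0.21). In wtATM it was lost without DMSO replicate 2 (−0.15) or APH replicate 1 (−0.19).

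Pold2, the second subunit of polymerase δ, which polymerase ζ also uses, fell in every line. It was 83.6 and 88.0 CPM with APH, against 138.6 and 131.2 CPM with DMSO in ATM knock-out cells, and 62.3 and 64.3 CPM with APH, against 98.5 and 99.2 CPM with DMSO in wtATM. It was 78.3 and 74.9 CPM with APH, against 108.6 and 102.2 CPM with DMSO in the ATMIN knock-out line, and 83.9 and 78.6 CPM with APH, against 132.1 and 121.5 CPM with DMSO in wtATMIN. No APH sample reached a DMSO sample of its line, and every APH sample of any line lay below every DMSO sample of any line. The ratios to DMSO were 0.636, 0.640, 0.727 and 0.641 in the same order of lines, with log2 fold changes of −0.65, −0.64, −0.46 and −0.64, each ± 0.09 (SE). The adjusted p was 5.29e-07, 9e-07, 0.000123 and 5.91e-07 (edgeR), and no fit without 1 sample and no other setting tried lost a call.

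Pold1, the catalytic subunit of polymerase δ, fell in the wild-type lines and was not called in the knock-out lines. In wtATM it was 68.9 and 81.7 CPM with APH, against 94.7 and 96.1 CPM with DMSO (−0.34 ± 0.11, adjusted p = 0.0178, edgeR). The call was lost without APH replicate 1 (−0.22), DMSO replicate 1 (−0.34) or DMSO replicate 2 (−0.33). In wtATMIN it was 92.4 and 95.7 CPM with APH, against 120.2 and 112.1 CPM with DMSO (−0.31 ± 0.11, adjusted p = 0.0301), a call lost without APH replicate 1 (−0.29), APH replicate 2 (−0.34) or DMSO replicate 1 (−0.27). Both knock-out lines had a log2 fold change of −0.20 (adjusted p = 0.177 for ATM and 0.174 for ATMIN). The knock-out and wild-type responses of Pold1 were not called different in either pair. The difference was 0.14 ± 0.15 (adjusted p = 0.749, edgeR) in the ATM pair and 0.10 ± 0.15 (adjusted p = 0.865) in the ATMIN pair. Pold3, which polymerase δ shares with polymerase ζ and which serves break-induced replication, fell in wtATM (−0.31 ± 0.08, adjusted p = 0.00364) and in ATM knock-out cells (−0.21 ± 0.07, adjusted p = 0.0282). The Pold3 call in wtATM was lost without APH replicate 2 (−0.25), and in ATM knock-out cells without any 1 of the 4 samples (−0.25 to −0.19).

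Pole, the catalytic subunit of polymerase ε, went in opposite directions. In the ATMIN knock-out line it was 266.1 and 283.2 CPM with APH, against 185.1 and 177.9 CPM with DMSO, a ratio of 1.51 (0.60 ± 0.07, adjusted p = 1.77e-08, edgeR). In wtATM it was 108.2 and 118.2 CPM with APH, against 150.1 and 143.8 CPM with DMSO, a ratio of 0.770 (−0.38 ± 0.07, adjusted p = 6.29e-05). Pole also rose in wtATMIN, with 189.7 and 181.3 CPM with APH, against 157.5 and 164.0 CPM with DMSO (0.21 ± 0.07, adjusted p = 0.0191), but that call was lost without APH replicate 1 (0.17), DMSO replicate 1 (0.16) or DMSO replicate 2 (0.23). Pole in ATM knock-out cells was 161.0 and 159.0 CPM with APH, against 153.5 and 153.6 CPM with DMSO, and was not called (0.06, adjusted p = 0.58). Reads of Pole and of Gm15792, an antisense gene that overlaps its exons by 78 bases, cannot be told apart without strand, but Gm15792 had 1563 counts over all 32 samples, against 83101 for Pole.

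The 2 other ε subunits were called in fewer lines. Pole2, the second subunit of polymerase ε, fell in wtATM, where it was 36.1 and 36.6 CPM with APH, against 47.4 and 46.6 CPM with DMSO (−0.37 ± 0.09, adjusted p = 0.00181, edgeR). It also fell in wtATMIN (−0.26 ± 0.09, adjusted p = 0.0307, edgeR), a call lost without APH replicate 1 (−0.24), APH replicate 2 (−0.29) or DMSO replicate 2 (−0.18). The wtATMIN call was lost too with library size as the only scaling (−0.18) and with DESeq2 (−0.25). Pole3, a histone-fold subunit that also serves in a chromatin remodeller, rose in ATM knock-out cells, with 71.4 and 68.7 CPM with APH, against 56.6 and 61.7 CPM with DMSO (0.25 ± 0.07, adjusted p = 0.0124). The Pole3 call was lost without APH replicate 1 (0.22) or DMSO replicate 1 (0.18). In the other 3 lines Pole3 differed by −0.10 to 0.04 and was not called.

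**Figure D2:**
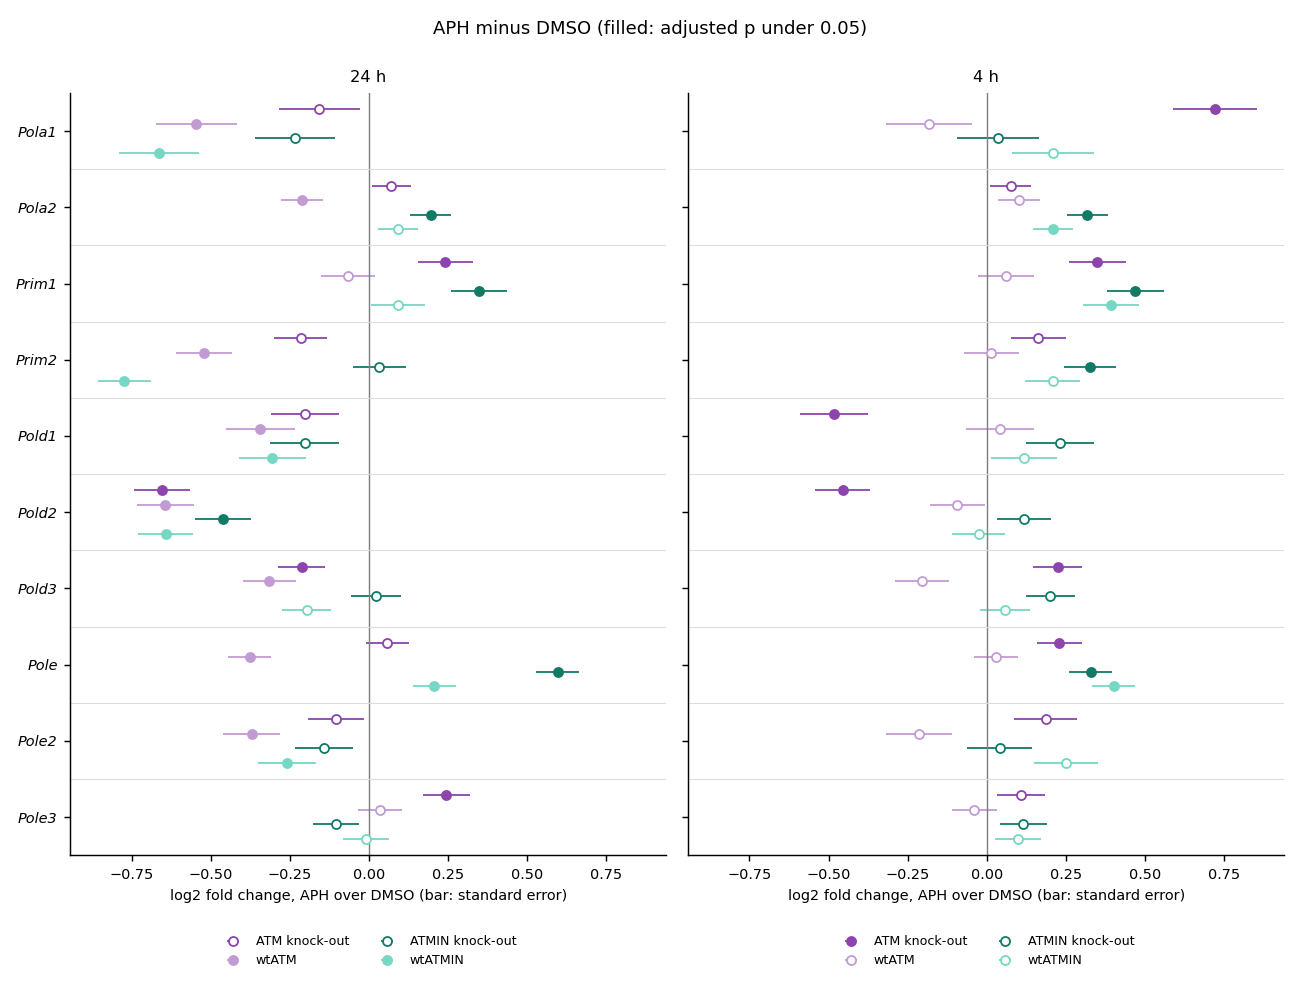
Log2 fold change, APH over DMSO, of each of the 10 genes at 24 h (left) and 4 h (right) in the 4 lines; bars are the standard error of the fit and filled points have an adjusted p under 0.05. At 24 h Pold2 is filled in all 4 lines, between −0.65 and −0.46, whereas Pole ranges from −0.38 in wtATM to 0.60 in the ATMIN knock-out line.

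Cell cycle genes also moved at 24 h, and differently by line. Of 10 G2/M genes (such as Ccnb1, Plk1 and Top2a), 6 fell in ATM knock-out cells, 6 fell and 1 rose in wtATM, 6 rose and 1 fell in the ATMIN knock-out line, and 8 rose in wtATMIN. Of 5 G1/S genes (such as Ccne1, E2f1 and Cdc6), 4 rose in ATM knock-out cells, 1 rose and 1 fell in wtATM, 5 rose in the ATMIN knock-out line and 2 rose in wtATMIN. The part of cell cycle position in the values of the polymerase genes was not tested.

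After 4 h of APH the called changes were mostly increases, and Prim1 and Pole were called in 3 lines each. In ATM knock-out cells 4 of the 10 genes rose and 2 fell, in the ATMIN knock-out line 4 rose and in wtATMIN 3 rose. Of these 13 calls, 7 stayed called under every other setting tried. In wtATM 0 of 10 were called by edgeR's quasi-likelihood test and 0 by DESeq2. There 2 had an unadjusted p under 0.05 in edgeR's fit across all genes, Pold3 (−0.20) and Pole2 (−0.21). Among all genes, 14% were called higher and 15.4% lower in ATM knock-out cells, 2.81% higher and 2.76% lower in wtATM, 9.48% higher and 10.9% lower in the ATMIN knock-out line, and 7.25% higher and 7.75% lower in wtATMIN. These counts depended on single samples. The 5436 calls in ATM knock-out cells became 2420 without APH replicate 2 and 2779 without DMSO replicate 2. The 1031 in wtATM became 566 without APH replicate 2, 591 without DMSO replicate 1 and 545 without DMSO replicate 2, and the 3768 in the ATMIN knock-out line became 2389 without APH replicate 2 and 2306 without DMSO replicate 2. The 2773 in wtATMIN became 1452 without APH replicate 1, 1762 without APH replicate 2 and 1425 without DMSO replicate 2. With library size as the only scaling, 1889 genes were called higher and 3768 lower in ATM knock-out cells, and 625 higher and 371 lower in wtATM. The median log2 fold change of the 10 genes was 0.17, −0.01, 0.22 and 0.21 in the same order of lines, against medians of all genes between −0.02 and 0.

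Prim1 rose to 90.3 and 87.9 CPM with APH, against 61.7 and 66.9 CPM with DMSO, in the ATMIN knock-out line (0.47 ± 0.09, adjusted p = 0.000152, edgeR). In wtATMIN it was 102.5 and 110.2 CPM with APH, against 85.2 and 76.7 CPM with DMSO (0.39 ± 0.09, adjusted p = 0.00156), a call lost without DMSO replicate 2 (0.31). In ATM knock-out cells it was 90.8 and 119.1 CPM with APH, against 84.6 and 79.2 CPM with DMSO (0.35 ± 0.09, adjusted p = 0.00329). There the call rested on the samples that stood apart: it was lost without APH replicate 2 (0.14) and without DMSO replicate 2 (0.30), and was 0.53 without APH replicate 1. In wtATM Prim1 was 109.3 and 102.6 CPM with APH, against 100.6 and 102.7 CPM with DMSO (0.06, adjusted p = 0.822).

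Pole rose in the same 3 lines. It was 185.5 and 180.3 CPM with APH, against 151.0 and 140.4 CPM with DMSO in the ATMIN knock-out line (0.33 ± 0.07, adjusted p = 0.000456, edgeR), and 182.2 and 171.0 CPM with APH, against 143.2 and 124.4 CPM with DMSO in wtATMIN (0.40 ± 0.07, adjusted p = 5.98e-05). In ATM knock-out cells it was 144.3 and 143.0 CPM with APH, against 129.4 and 115.7 CPM with DMSO (0.23 ± 0.07, adjusted p = 0.0129), a call lost without APH replicate 2 (0.23) or DMSO replicate 2 (0.15). The groups did not overlap in any of these lines. Pola2 rose in the ATMIN knock-out line (0.32 ± 0.06, adjusted p = 0.000351) and in wtATMIN (0.21 ± 0.06, adjusted p = 0.0207), but the wtATMIN call was lost without any 1 of its 4 samples (0.20 to 0.21). Prim2 rose in the ATMIN knock-out line (0.33 ± 0.08, adjusted p = 0.00354).

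The remaining 4 h calls were all in ATM knock-out cells. Pola1 was 94.6 and 118.4 CPM with APH, against 69.7 and 58.7 CPM with DMSO, a ratio of 1.65 (0.72 ± 0.13, adjusted p = 0.000283, edgeR). It stayed called without APH replicate 1 (0.87) and without APH replicate 2 (0.55). Pold2 was 144.8 and 115.5 CPM with APH, against 168.1 and 190.1 CPM with DMSO (−0.46 ± 0.09, adjusted p = 0.000184), and stayed called without APH replicate 1 (−0.64) and without APH replicate 2 (−0.31). Pold1 was 115.3 and 77.3 CPM with APH, against 129.4 and 142.0 CPM with DMSO (−0.48 ± 0.11, adjusted p = 0.00136). The Pold1 call was lost without APH replicate 2 (−0.24) and the change was −0.82 without APH replicate 1. Pold3 rose (0.22 ± 0.08, adjusted p = 0.0277), a call lost without APH replicate 2 (0.17), DMSO replicate 1 (0.22) or DMSO replicate 2 (0.22). Without APH replicate 1, 8 of the 10 genes were called in this line, and without APH replicate 2 only Pola1 and Pold2. When only the 4 samples of this comparison were fitted, 1 gene was called, and of these 6 calls only that of Pola1 held. Of the 10 G2/M genes, 5 fell at 4 h in ATM knock-out cells, 9 in wtATM, 10 in the ATMIN knock-out line and 8 in wtATMIN.

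The responses at 24 h and 4 h were then compared within each line, as the difference between the log2 fold changes. In 36 of 40 cases the 10 genes had a lower response at 24 h than at 4 h, and 14 of the 15 that passed the test did. These cases share samples and are not independent, and the share of all genes with a lower response was not counted. The median difference of the 10 genes was −0.18 in ATM knock-out cells, −0.34 in wtATM, −0.20 in the ATMIN knock-out line and −0.36 in wtATMIN. The median of all genes lay between −0.01 and 0.02. Called lower were 3 genes in ATM knock-out cells, 4 in wtATM, 2 in the ATMIN knock-out line and 5 in wtATMIN, and Pole was called higher in the ATMIN knock-out line. Among all genes, 12.1% were called higher and 9.89% lower in ATM knock-out cells, 7.87% higher and 7.22% lower in wtATM, 10.8% higher and 10.3% lower in the ATMIN knock-out line, and 9.12% higher and 9.45% lower in wtATMIN. The 4059 calls in ATM knock-out cells became 2692 without DMSO 24 h replicate 2. With library size as the only scaling, 3188 genes were called higher and 992 lower in ATM knock-out cells, 2541 and 1286 in the ATMIN knock-out line, and 2210 and 1080 in wtATMIN.

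For Pold2 this difference was −0.55 ± 0.12 in wtATM (adjusted p = 0.00181, edgeR), −0.58 ± 0.12 in the ATMIN knock-out line (adjusted p = 0.000644) and −0.62 ± 0.12 in wtATMIN (adjusted p = 0.000303). In these 3 lines Pold2 was lower with APH at 24 h and was not called at 4 h. In ATM knock-out cells, where Pold2 was lower at both times, the difference was −0.20 (adjusted p = 0.272), and it rested on the samples that stood apart: it was −0.36 and called without APH 4 h replicate 2 (adjusted p = 0.0269), and −0.01 and not called without APH 4 h replicate 1. For Prim2 it was −0.98 ± 0.12 in wtATMIN (adjusted p = 1.37e-07), −0.54 ± 0.12 in wtATM (adjusted p = 0.00224) and −0.38 ± 0.12 in ATM knock-out cells (adjusted p = 0.021). The Prim2 call in ATM knock-out cells was lost without APH 4 h replicate 2 (−0.24), DMSO 4 h replicate 2 (−0.32), DMSO 24 h replicate 1 (−0.36) or APH 24 h replicate 2 (−0.36).

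For Pola1 the difference was −0.88 ± 0.18 in ATM knock-out cells (adjusted p = 0.00135, edgeR) and −0.87 ± 0.18 in wtATMIN (adjusted p = 0.00124). The ATM knock-out value was −1.02 without APH 4 h replicate 1 and −0.73 without APH 4 h replicate 2, called in both fits. Pold3 differed in ATM knock-out cells (−0.44 ± 0.11, adjusted p = 0.00304), with −0.47 and −0.40 without these samples, called in both fits. Without APH 4 h replicate 1, Pold1 (0.62, upward) and Pole2 (−0.47) were also called in these cells. Pole2 differed in wtATMIN (−0.51 ± 0.14, adjusted p = 0.00716), a call lost with library size as the only scaling (−0.43). Pole differed in wtATM (−0.41 ± 0.10, adjusted p = 0.00342) and, upward, in the ATMIN knock-out line (0.27 ± 0.10, adjusted p = 0.0425), where the call was lost without any 1 of the 8 samples (0.20 to 0.31).

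Pold1 had the weakest of these calls. Its difference was −0.43 ± 0.15 in the ATMIN knock-out line (adjusted p = 0.0436, edgeR), lost without APH 4 h replicate 2 (−0.35), DMSO 4 h replicate 1 (−0.39) or any 1 of the 4 samples at 24 h (−0.47 to −0.41). In wtATMIN it was −0.42 ± 0.15 (adjusted p = 0.0469), kept without DMSO 4 h replicate 2 and lost without any other of the 8 samples (−0.49 to −0.33). The Pola2 call in wtATM (−0.31 ± 0.09, adjusted p = 0.0174) was lost without APH 24 h replicate 1 (−0.29), DMSO 24 h replicate 2 (−0.25), APH 4 h replicate 2 (−0.30) or DMSO 4 h replicate 1 (−0.29).

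Whether a knock-out line answered APH differently from its wild-type partner was tested as the difference between their log2 fold changes. At 24 h Pole answered differently in both pairs. In the ATM pair the difference was 0.44 ± 0.10 (adjusted p = 0.00602, edgeR), from 0.06 in the knock-out line against −0.38 in wtATM. In the ATMIN pair it was 0.39 ± 0.10 (adjusted p = 0.0177), from 0.60 in the knock-out line against 0.21 in wtATMIN. The ATM call was lost without ATM knock-out DMSO replicate 2 (0.40), wtATM APH replicate 1 (0.37) or wtATM DMSO replicate 1 (0.37). The ATMIN call was lost without ATMIN knock-out APH replicate 2 (0.35), ATMIN knock-out DMSO replicate 2 (0.36), wtATMIN APH replicate 2 (0.37) or wtATMIN DMSO replicate 2 (0.37).

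Prim2 gave the smallest adjusted p of these differences, in the ATMIN pair at 24 h. Its log2 fold change was 0.03 in the ATMIN knock-out line against −0.77 in wtATMIN, a difference of 0.81 ± 0.12 (adjusted p = 4.62e-05, edgeR) that no fit without 1 sample lost. In the ATM pair the Prim2 difference was 0.31 ± 0.12 (adjusted p = 0.179). Pold2 did not differ detectably at 24 h, with a difference of −0.01 ± 0.13 in the ATM pair and of 0.18 ± 0.12 in the ATMIN pair. Besides Pole in both pairs and Prim2 in the ATMIN pair, no member was called at 24 h. Among all genes at 24 h, 2.67% were called higher and 1.23% lower in the ATM pair, and 1.01% higher and 1.42% lower in the ATMIN pair. The 722 calls of the ATM pair became 338 to 433 without any 1 sample other than wtATM APH replicate 2, and the 450 of the ATMIN pair became 217 to 269 without any 1 sample other than wtATMIN DMSO replicate 1. For the ATM pair the split was 494 higher and 228 lower, and 385 and 288 with the size factors of relative log expression.

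At 4 h 3 genes differed in the ATM pair, and how far they did moved with the samples that stood apart. Pola1 differed by 0.91 ± 0.19 (adjusted p = 0.00496, edgeR), with 1.05 without ATM knock-out APH replicate 1 and 0.72 without replicate 2 (adjusted p = 0.046), called in both fits. Pold3 differed by 0.43 ± 0.11 (adjusted p = 0.0139), lost without ATM knock-out APH replicate 2 (0.36), ATM knock-out DMSO replicate 2 (0.41), wtATM APH replicate 1 (0.39) or wtATM DMSO replicate 1 (0.38). Pold1 differed by −0.52 ± 0.15 (adjusted p = 0.0266). The Pold1 call was lost without ATM knock-out APH replicate 2 (−0.29), ATM knock-out DMSO replicate 2 (−0.47), wtATM APH replicate 2 (−0.49), wtATM DMSO replicate 1 (−0.53) or wtATM DMSO replicate 2 (−0.55), and was −0.86 without ATM knock-out APH replicate 1. Without that last sample, Pola1, Prim1, Pold1, Pold2, Pold3 and Pole2 were all called. When only the 8 samples of this comparison were fitted, edgeR called none of the 10 genes.

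In the ATMIN pair at 4 h, 0 of the 10 genes were called by edgeR's quasi-likelihood test, 0 by DESeq2, and 0 had an unadjusted p under 0.05. Among all genes at 4 h, 6.02% were called higher and 5.36% lower in the ATM pair, and 0.346% higher and 0.325% lower in the ATMIN pair. The 2102 calls of the ATM pair became 4787 without ATM knock-out APH replicate 1 and 697 without APH replicate 2. They became 639 without ATM knock-out DMSO replicate 2, 754 without wtATM APH replicate 2 and 994 without wtATM DMSO replicate 1. The 124 calls of the ATMIN pair became 60 to 72 without ATMIN knock-out APH replicate 2, either ATMIN knock-out DMSO sample, either wtATMIN APH sample or wtATMIN DMSO replicate 2. With library size as the only scaling, 552 genes were called higher and 2303 lower in the ATM pair.

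**Figure D3:**
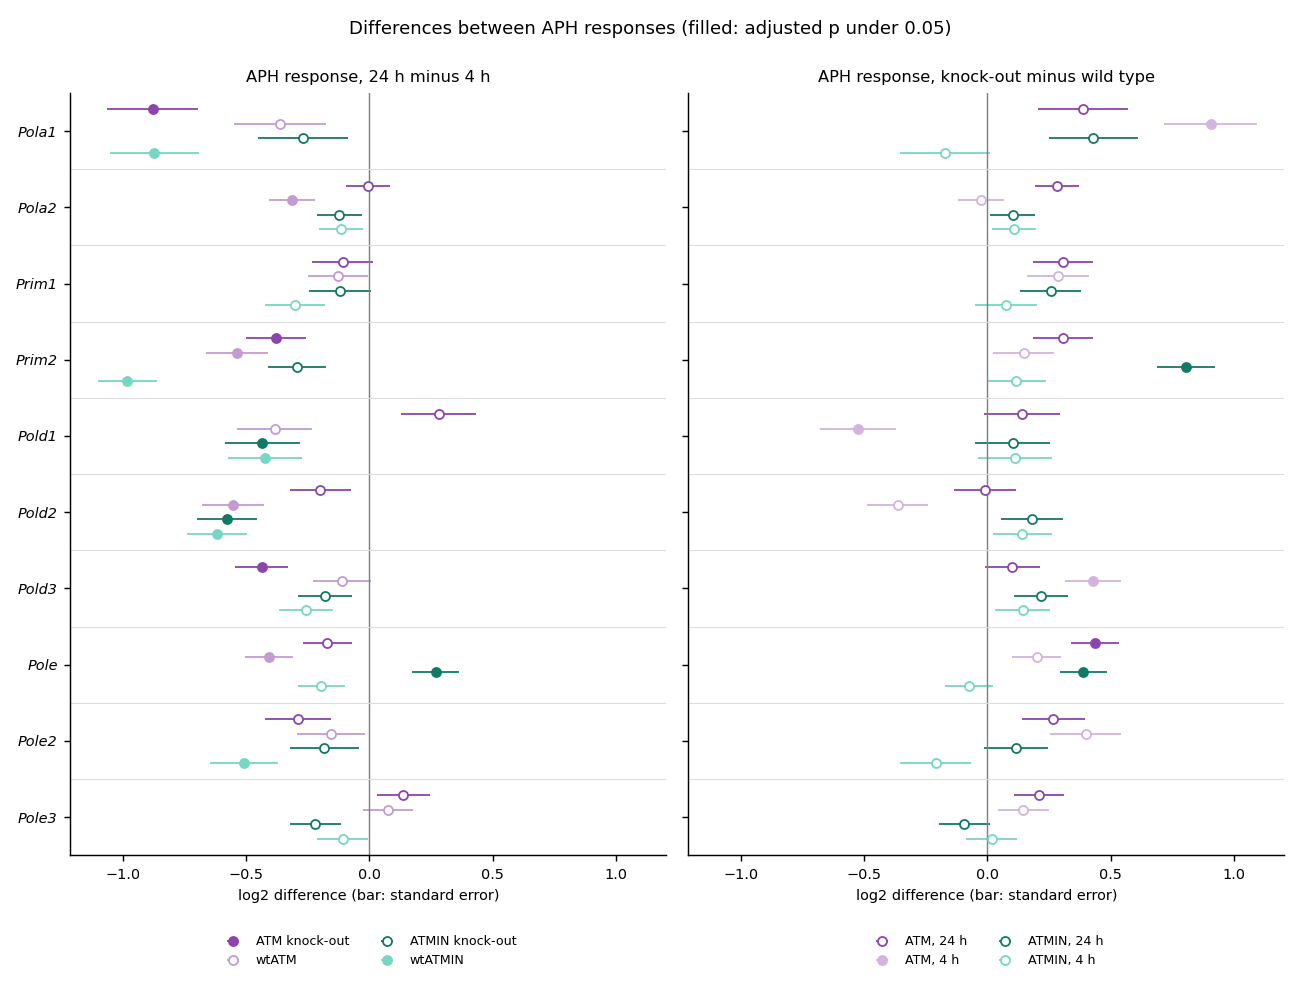
Differences between responses to APH on the log2 scale: the knock-out minus the wild-type response at 24 h and 4 h, and the 24 h minus the 4 h response in each line. Bars are the standard error and filled points have an adjusted p under 0.05; the highest filled points of the knock-out comparison are Pola1 in the ATM pair at 4 h (0.91) and Prim2 in the ATMIN pair at 24 h (0.81).

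These genes also differed between the DMSO samples of the 2 times. Between the 24 h and 4 h DMSO samples, Pole2 and Pole were higher and Pold2 was lower at 24 h in all 4 lines. Pole2 was 53.3 and 51.5 CPM at 24 h, against 30.2 and 33.7 CPM at 4 h in ATM knock-out cells, and 36.2 and 41.3 CPM at 24 h, against 19.5 and 20.7 CPM at 4 h in wtATMIN. Its log2 differences were 0.72, 0.88, 0.87 and 0.94 in the order ATM knock-out, wtATM, ATMIN knock-out and wtATMIN, each ± 0.09 or 0.10 (adjusted p from 3.21e-10 to 6.4e-08, edgeR). Pold2 was lower by log2 differences of −0.41, −0.55, −0.42 and −0.54 in the same order (adjusted p from 1.77e-06 to 0.000161). The 24 h DMSO samples, against which the fall of Pold2 with APH was measured, were thus already lower than the 4 h DMSO samples. In the wild-type lines Pola1 and Pole2 fell with APH against 24 h DMSO samples that lay above the 4 h ones. Mean Pola1 with 24 h of APH was 68.8 (wtATM) and 73.2 CPM (wtATMIN), against 64.0 and 70.0 CPM with DMSO at 4 h. Mean Pole2 was 36.3 and 32.3 CPM, against 25.5 and 20.1 CPM. Mean Prim2 was 36.6 and 41.8 CPM, against 48.3 and 47.0 CPM. With DMSO, Pole was higher at 24 h by 0.33, 0.17, 0.32 and 0.26. Its call in wtATM was lost without DMSO 24 h replicate 1 (0.15), DMSO 24 h replicate 2 (0.20) or DMSO 4 h replicate 1 (0.13), and in wtATMIN without DMSO 4 h replicate 2 (0.14). The wtATM call of Pole was also lost with the size factors of relative log expression and with DESeq2 (0.15 each).

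Pola1 and Prim1 were higher at 24 h in every line but the ATMIN knock-out. Pola1 differed by 0.60, 0.65 and 0.73 in ATM knock-out cells, wtATM and wtATMIN (adjusted p = 0.000493, 0.00024 and 3.81e-05, edgeR) and by 0.17 (adjusted p = 0.305) in the ATMIN knock-out line. Prim1 differed by 0.35, 0.39 and 0.35 in those 3 lines (adjusted p = 0.00137, 0.000333 and 0.000861), with the wtATMIN call lost without DMSO 4 h replicate 2 (0.25). It differed by 0.16 (adjusted p = 0.138) in the ATMIN knock-out line. Prim2 was higher in wtATMIN (0.60) and in ATM knock-out cells (0.30, lost at 0.23 without DMSO 4 h replicate 2), and Pold3 was higher (0.54) and Pold1 lower (−0.43) in ATM knock-out cells. Among all genes, 24.6% were called higher and 24.1% lower in ATM knock-out cells, 23.1% higher and 23.3% lower in wtATM, 23.4% higher and 23.8% lower in the ATMIN knock-out line, and 29.1% higher and 26.3% lower in wtATMIN. With library size as the only scaling, 5508 genes were called higher and 3263 lower in wtATM, 5608 and 3294 in the ATMIN knock-out line, and 6642 and 3787 in wtATMIN. Gm42418 was at 252.1 to 5751 CPM in the 16 samples at 24 h. In the 16 samples at 4 h it was at 13780 to 97840 CPM. The ranges did not overlap, so time in culture and this difference between the samples cannot be told apart. The part of Gm42418 in the time differences was not tested.

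The knock-out lines differed from their wild-type partners without APH, and the pairs differed in opposite directions for several subunits. In the ATM pair Pola2 was 139.0 and 127.1 CPM in the knock-out line, against 79.4 and 86.5 CPM in wtATM at 24 h, and 122.1 and 124.6 CPM, against 74.5 and 76.6 CPM at 4 h. These are log2 differences of 0.68 ± 0.06 and 0.71 ± 0.06 (adjusted p = 1.2e-11 and 9.94e-12, edgeR). In the ATMIN pair Pola2 was lower, at 72.4 and 69.3 CPM in the knock-out line, against 104.1 and 99.8 CPM in wtATMIN at 24 h (−0.53 ± 0.06, adjusted p = 1.15e-08), and by −0.38 ± 0.06 at 4 h (adjusted p = 7.75e-06).

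Pold3 and Pole3 gave the widest gaps in the ATM pair. At 24 h Pold3 was 68.9 and 67.1 CPM in ATM knock-out cells, against 30.9 and 30.7 CPM in wtATM, 2.21 times as high (1.14 ± 0.08, adjusted p = 1.97e-15, edgeR). Pole3 was 56.6 and 61.7 CPM in ATM knock-out cells, against 116.9 and 117.3 CPM in wtATM, a ratio of 0.505 (−0.99 ± 0.07, adjusted p = 3.06e-14). At 4 h the differences had the same signs, 0.51 for Pold3 and −0.77 for Pole3. Prim1 was lower in both knock-out lines at both times, by −0.36 and −0.31 in the ATM pair and by −0.52 and −0.33 in the ATMIN pair (24 h, then 4 h). The last of these calls was lost without ATMIN knock-out DMSO replicate 1 (−0.27) or wtATMIN DMSO replicate 1 (−0.25).

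In the ATM pair 4 genes were higher and 2 lower at 24 h, and 6 were higher and 2 lower at 4 h. Prim2 (0.45 at 24 h and 0.27 at 4 h) and Pold2 (0.45 and 0.31) were higher at both times, and Pold1 (0.31) and Pole2 (0.32) at 4 h. At 4 h the Prim2 call was lost without knock-out replicate 1 (0.18) or wtATM replicate 2 (0.26). The Pold1 call was lost without knock-out replicate 2 (0.25), wtATM replicate 1 (0.30) or wtATM replicate 2 (0.32), that of Pole2 without knock-out replicate 2 (0.24) or wtATM replicate 2 (0.30), and that of Pold2 without knock-out replicate 2 (0.22). Among all genes, 29.5% were called higher and 29.8% lower at 24 h, and 27.3% higher and 27.9% lower at 4 h. The epithelial, muscle and neural marker sums given above also differ between these lines, and their part in the differences was not tested.

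In the ATMIN pair 7 genes were lower and 2 higher at 24 h, and 4 were lower and 1 higher at 4 h. Pold1 (−0.49 ± 0.11 at 24 h and −0.61 ± 0.11 at 4 h) and Pold2 (−0.27 ± 0.09 and −0.39 ± 0.09) were lower at both times. Prim2 was lower at 24 h (−0.22) and higher at 4 h (0.46). At 24 h Pola1 (−0.31) and Pold3 (−0.23) were also lower, and Pole (0.18) and Pole3 (0.19) higher. Most of these 24 h calls were fragile. That of Pola1 was lost without knock-out replicate 1 (−0.24), knock-out replicate 2 (−0.37) or wtATMIN replicate 2 (−0.16), and that of Prim2 without any 1 of the 4 samples (−0.23 to −0.17). That of Pold2 was lost without knock-out replicate 2 (−0.22) or wtATMIN replicate 1 (−0.18), and that of Pold3 without knock-out replicate 2 (−0.18) or wtATMIN replicate 1 (−0.14). Pole was lost without knock-out replicate 1 (0.15), knock-out replicate 2 (0.20) or wtATMIN replicate 1 (0.17), and Pole3 without knock-out replicate 2 (0.16) or wtATMIN replicate 2 (0.21). At 4 h Pold2 was −0.24 without wtATMIN replicate 2 and stayed called. Among all genes, 23.5% were called higher and 26.2% lower at 24 h, and 21.9% higher and 23% lower at 4 h. The adipocyte marker sum, 49.4 to 104.2 CPM in the ATMIN knock-out line and 0.364 to 1.98 CPM in wtATMIN, also differs between these lines, and its part in the differences was not tested.

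The wild-type lines differed from each other too. Of the 10 genes, 3 were higher and 5 lower in wtATM than in wtATMIN at 24 h, and 3 were higher and 4 lower at 4 h, with DMSO. Pole3 was 116.9 and 117.3 CPM in wtATM, against 72.7 and 71.1 CPM in wtATMIN at 24 h (0.70 ± 0.07, adjusted p = 1.01e-10, edgeR), and differed by 0.65 ± 0.07 at 4 h (adjusted p = 1.22e-09). Prim1 (0.37 at 24 h and 0.33 at 4 h) and Pole2 (0.28 and 0.34) were also higher in wtATM at both times. Pold2 (−0.36 and −0.35), Pola2 (−0.30 and −0.33), Pold3 (−0.43 and −0.20) and Pold1 (−0.29 and −0.27) were lower at both times, and Prim2 at 24 h (−0.45). At 24 h the Pold1 call was lost without wtATM replicate 1 (−0.24), wtATM replicate 2 (−0.30) or wtATMIN replicate 1 (−0.22), and that of Pole2 without wtATMIN replicate 1 (0.20). At 4 h wtATMIN replicate 2 decided 3 calls: without it Pold2 was −0.20, Pold1 −0.17 and Pold3 −0.12, and none of them was called. The 4 h calls of Pold1 and Pold3 were also lost without wtATM replicate 1 (−0.26 and −0.24) or wtATM replicate 2 (−0.28 and −0.16). Among all genes, 30.2% were called higher and 31.5% lower at 24 h, and 28.4% higher and 28.8% lower at 4 h. The part of the marker sums that set wtATM apart was not tested.

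**Figure D4:**
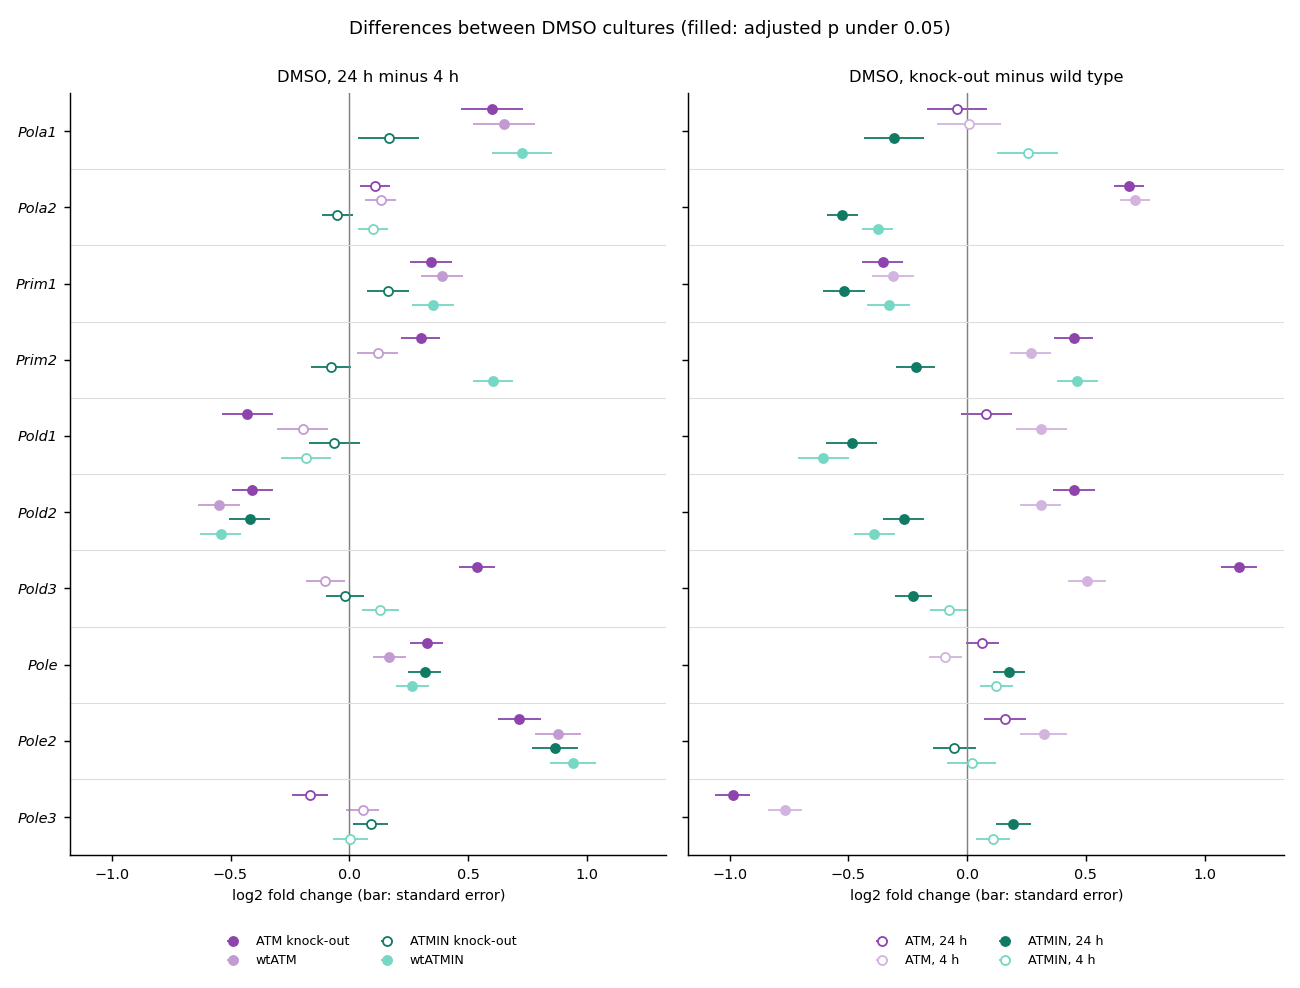
Log2 differences of the 10 genes in DMSO samples: knock-out minus wild-type line at 24 h and 4 h, and 24 h minus 4 h in each line. Bars are the standard error and filled points have an adjusted p under 0.05; Pold3 (1.14) and Pole3 (−0.99) in the ATM pair at 24 h lie farthest from 0.

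Levels between subunits were compared per kilobase of merged exons, as CPM per kb over the 4 DMSO samples of a line (mean ± SD, n = 4). Pold2 had the highest level in every line, at 82.8 ± 14.4 in ATM knock-out cells, 64.2 ± 14.0 in wtATM, 64.95 ± 10.9 in the ATMIN knock-out line and 82.1 ± 19.5 CPM per kb in wtATMIN. Pole3, from a short gene with 3 merged exons, came next, at 30.7, 56.3, 39.1 and 35.2 CPM per kb. Pold3 was lowest in wtATM, the ATMIN knock-out line and wtATMIN (6.93, 7.75 and 8.61 CPM per kb) and Pola1 in ATM knock-out cells (9.18 CPM per kb). The order depends on the gene length used. With the gene lengths in the authors' deposited tables Pold2 was first in 3 lines and came after Prim1 in wtATM (73.4 against 73.6 CPM per kb), and with the length of the longest transcript it was first in all 4.

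**Figure D5:**
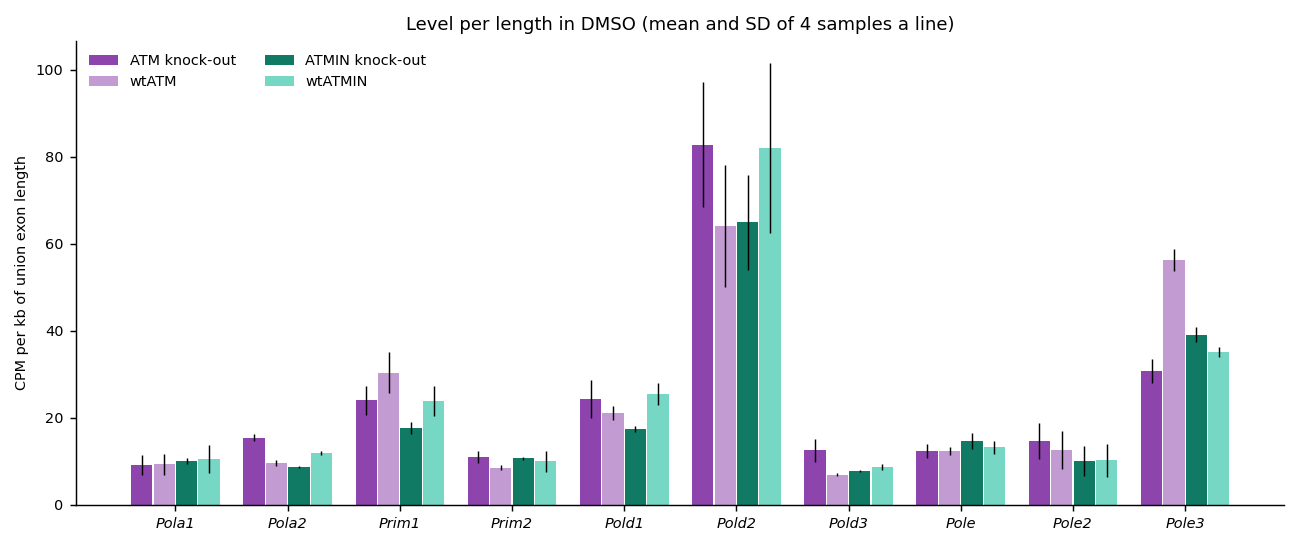
CPM per kilobase of merged exons of the 10 genes in the DMSO samples of each line. Bars are means and error bars the SD of the 4 DMSO samples (2 at 24 h and 2 at 4 h); Pold2 stands highest in each line, between 64.2 and 82.8 CPM per kb.

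Over the 16 groups, the mean CPM of the catalytic subunits spanned different ranges. Pola1 was highest in wtATMIN with DMSO at 24 h (116 ± 12.8 CPM, SD, n = 2) and lowest in wtATM with APH at 4 h (56.0 ± 11.9 CPM), and the ranges of 12 of its 15 neighbouring groups overlapped. Pold1 was highest in wtATMIN with APH at 4 h (142.9 CPM) and lowest in the ATMIN knock-out line with APH at 24 h (72.1 CPM), with 10 of 15 neighbours overlapping. Pole was highest in the ATMIN knock-out line with APH at 24 h (274.7 ± 12.1 CPM), clear of the next group, and lowest in wtATM with APH at 24 h (113.2 ± 7.02 CPM), with 11 of 15 neighbours overlapping. The ratio of the highest to the lowest group mean was 1.97 for Pola2 and 2.92 for Pold2, the ends of the range over the 10 genes.

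The subunits of a complex did not vary as a unit. Pearson's r of log2 CPM over the 16 groups, given as a description of groups that share lines and treatments, was highest between Pola2 and Pold3 (0.86) and between Pold1 and Pold2 (0.84) among the 45 pairs. It was 0.64 between Prim2 and Pold3 and 0.62 between Pola1 and Prim2. It was lowest between Pold3 and Pole3 (−0.82) and between Pola2 and Pole3 (−0.72). Within polymerase α-primase r ran from −0.36 (Prim1 and Prim2) to 0.62 (Pola1 and Prim2). Within polymerase δ it ran from 0.18 (Pold1 and Pold3) to 0.84 (Pold1 and Pold2). Within polymerase ε it ran from −0.325 (Pole and Pole3) to 0.09 (Pole and Pole2). Among 11591 genes, those closest to Pola1 were Ddx3x (r = 0.87), Tra2b (0.86) and Syncrip (0.86), those closest to Pold1 were Otub1 (0.94), Usp10 (0.91) and Gtpbp3 (0.90), and those closest to Pole were Brip1 (0.92), Zfp658 (0.92) and Blm (0.91).

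The genes that work beside the polymerases at the fork (24 genes, among them the last small subunits Pold4 and Pole4, the sliding clamp Pcna and its loaders) rose more often than they fell at 4 h. At 4 h 10 rose and 3 fell in ATM knock-out cells, 4 rose in wtATM, 14 rose in the ATMIN knock-out line and 12 rose in wtATMIN. Among all genes, 14%, 2.81%, 9.48% and 7.25% were called higher at 4 h in the same order of lines. Called lower were 15.4%, 2.76%, 10.9% and 7.75%. At 24 h 6 rose and 3 fell in ATM knock-out cells, 3 rose and 7 fell in wtATM, 11 rose and 1 fell in the ATMIN knock-out line, and 3 rose and 3 fell in wtATMIN. Of all genes, 15.7%, 14.4%, 14.3% and 13.6% were called higher at 24 h in this order, and 12.2%, 14.3%, 15.8% and 15.3% lower. The largest 4 h change was that of Dna2, a nuclease and helicase that trims Okazaki flaps and stalled forks. Its log2 fold change was 0.79, 0.72, 1.12 and 1.02 in the order ATM knock-out, wtATM, ATMIN knock-out and wtATMIN, called in all 4. Of the 24 genes, 10 rose in at least 3 lines at 4 h, and 6 of them, those with the largest mean size of change whatever its sign, are described. The other 4 were Rfc3 (called in all 4 lines, 0.34, 0.30, 0.39 and 0.32 in the same order), Rpa2, Chtf18 and Rfc1. The share of all genes that rose in at least 3 lines was not counted. Fen1, the flap endonuclease, was called in all 4 lines (0.33, 0.31, 0.55 and 0.37), with the wtATM call lost without APH replicate 2 or DMSO replicate 1 (0.26 each). Pcna rose in the lines other than wtATM (0.40, 0.49 and 0.46, against 0.12 in wtATM, adjusted p = 0.306, edgeR).

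Wdhd1, Mcm10 and Dscc1 were called in the 3 lines other than wtATM at 4 h. Wdhd1, which couples polymerase α to the replicative helicase, changed by 0.49, 0.06, 0.66 and 0.54 in the same order of lines. Mcm10, a fork protein that helps activate the helicase, changed by 0.22, 0.18, 0.75 and 0.58, and its call in ATM knock-out cells was lost without APH replicate 2 (0.16) or DMSO replicate 1 (0.18). Dscc1, part of an alternative clamp loader, changed by 0.40, −0.11, 0.59 and 0.40. Its call in ATM knock-out cells was lost without any 1 of the 4 samples (0.36 to 0.44), and that in wtATMIN without APH replicate 1 (0.36), APH replicate 2 (0.43) or DMSO replicate 2 (0.20), while it was 0.61 without DMSO replicate 1. At 24 h Rpa2, a subunit of the single-strand binding protein, changed by 0.61, 0.22, 0.38 and 0.16, the last not called, and its call in wtATM was lost without APH replicate 2 (0.18), DMSO replicate 1 (0.24) or DMSO replicate 2 (0.21). Lig1, the ligase that seals Okazaki fragments, changed by −0.19, −0.39, −0.03 and −0.37, called in all but the ATMIN knock-out line. Its call in ATM knock-out cells was lost without APH replicate 2 (−0.15) or DMSO replicate 1 (−0.17).

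Pold4, the smallest subunit of polymerase δ, which human cells degrade after DNA damage, went the other way from Pold2 at 24 h. Its log2 fold change was 1.07 ± 0.15 in ATM knock-out cells, 0.39 ± 0.11 in wtATM and 0.46 ± 0.12 in the ATMIN knock-out line, all called. It was 0.28 ± 0.12 in wtATMIN (adjusted p = 0.0647, edgeR). The Pold4 call in wtATM was lost without DMSO replicate 1 (0.34), and in the ATMIN knock-out line without DMSO replicate 2 (0.36). At 4 h its changes were between −0.06 and 0.17 and none was called. Pole4, the histone-fold partner of Pole3, fell at 24 h in ATM knock-out cells (−0.32 ± 0.11, adjusted p = 0.0246), a call lost without APH replicate 1 (−0.26), DMSO replicate 1 (−0.32) or DMSO replicate 2 (−0.34).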

How the data were processed

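Whole-gene read counts of 32 RNA-seq samples (TRIzol RNA, TruSeq RNA v2 libraries, per the labels) were taken as the authors deposited them. The submitters' processing notes name TopHat2 2.0.13, Bowtie2 2.4.0, DESeq2 1.6.3 and build mm10; the counting tool, strand setting and annotation release are not given in the sources used here. Columns marked AT and UT were read as APH and DMSO, the only treatments in the labels.

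Counts were normalised by trimmed mean of M-values and fitted with edgeR 4.0.16 (quasi-likelihood test, R 4.3.3, limma 3.58.1) in 1 model over all 16 groups, on 18484 genes that passed edgeR's filter on low counts. P-values were adjusted by Benjamini-Hochberg over these genes within each of 26 comparisons, and called at 0.05. The common biological coefficient of variation was 0.0643. Alternatives were other scalings, no filter, the compared groups alone, a replicate block, DESeq2 1.42.0 and each sample left out. The script was tested on simulated data: in a simulation of the ATMIN knock-out comparison at 24 h, 65% of genes changed 1.5-fold and 83% of those changed 2-fold were recovered, and 57% and 77% in one of the wtATM comparison at 4 h.

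The authors' deposited tables of comparisons give log2 fold changes and adjusted p-values from their own DESeq2 runs (10 tables); only those printed with that name were used. The gene lengths they list (other unit, bases) are the authors' own. Merged exon lengths and coordinates come from GENCODE M21. The authors' tables paired 16476 gene IDs with a symbol, GENCODE a further 21380, and 1161 had none. A further 120 single-sample columns in the deposited tables were not used.

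The members and gene lists were chosen with earlier results of these data known. Named are all 10 members, the partner genes called in 1 direction in at least 3 lines at a time (up to 6 per time, by mean absolute change), Pold4 and Pole4, and for each catalytic subunit the 3 genes with the highest correlation over the 16 groups.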

Additional observations from a re-analysis of the deposited data

Results flagged for a closer look

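The response to APH differed between groups for the following genes, by a test of the difference itself in edgeR's quasi-likelihood fit (adjusted p under 0.05); all values are differences between log2 fold changes. Between 24 h and 4 h in the ATM knock-out line, the differences were −0.879 for Pola1, −0.3793 for Prim2 and −0.4371 for Pold3. In wtATM they were −0.3127 for Pola2, −0.5368 for Prim2, −0.5516 for Pold2 and −0.4061 for Pole. In the ATMIN knock-out line they were −0.4333 for Pold1, −0.5773 for Pold2 and 0.2683 for Pole. In wtATMIN they were −0.8712 for Pola1, −0.9812 for Prim2, −0.4227 for Pold1, −0.6169 for Pold2 and −0.5087 for Pole2. Between the ATM knock-out line and wtATM, the differences at 24 h and 4 h were 0.4356 for Pole at 24 h and, at 4 h, 0.9053 for Pola1, −0.5238 for Pold1 and 0.4292 for Pold3. Between the ATMIN knock-out line and wtATMIN they were 0.8064 for Prim2 and 0.3898 for Pole at 24 h. Under every other setting tried, 10 of the 15 differences between times and 3 of the 6 between knock-out and wild type stayed called. Of these 21 differences, 12 were called in every fit that left out 1 sample. The others are given with the samples they rest on beside each result above.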

How the results depend on the processing

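Of 1560 log2 values of the 10 genes under other settings, 1466 stayed on their side of the threshold, 49 lost a call and 45 gained one; of 1360 values with 1 sample left out, the numbers were 1210, 131 and 19. Changes of sign were seen in 14 and 42 of these values, none of them called in either fit and none above 0.19 in size on the log2 scale. With library size as the only scaling, 2 genes were called at 24 h in the ATM knock-out line (4 in the main analysis), 3 between 24 h and 4 h responses in wtATMIN (5) and 5 between DMSO times in the ATMIN knock-out line (3). It moved the median of all genes by over 0.1 in 3 comparisons, to 0.12 (from 0) and 0.16 (from 0.03) for the DMSO times in the ATMIN knock-out line and wtATMIN, and to −0.12 (from 0) for wtATM minus wtATMIN at 24 h. With the compared groups fitted alone, 1 gene was called at 4 h in the ATM knock-out line (6) and 7 at 24 h (4), 5 between 24 h and 4 h in the ATMIN knock-out line (3), 0 between the ATM responses at 4 h (3) and 2 at 24 h (1), 4 between the ATMIN responses at 24 h (2), and 5 between DMSO times in the ATMIN knock-out line (3). The same choice moved counts over all genes, to 1242 from 5436 at 4 h in the ATM knock-out line, to 1789 from 4059 for its 24 h minus 4 h responses, to 21 from 2102 for the ATM responses at 4 h and to 1515 from 450 for the ATMIN responses at 24 h; no filter gave 225 against 124 for the ATMIN responses at 4 h. The cause of these shifts was not tested.

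Leaving out 1 sample gave 2 to 8 calls at 4 h in the ATM knock-out line and 1 to 3 in wtATMIN, and at 24 h 1 to 2 in the ATM knock-out line, 2 to 4 in the ATMIN knock-out line and 3 to 5 in wtATMIN. For 24 h minus 4 h responses it gave 2 to 5 in the ATM and 1 to 2 in the ATMIN knock-out line. For knock-out minus wild-type responses it gave 1 to 6 (ATM, 4 h), 0 to 1 (ATM, 24 h) and 1 to 2 (ATMIN, 24 h), and for DMSO levels 5 to 7 (ATM pair, 4 h), 3 to 6 (ATMIN pair, 24 h) and 4 to 7 (wtATM minus wtATMIN, 4 h). The labels do not say what equally numbered samples share. Their deviations correlated by −0.24 to 0.15, which cannot show whether they were made together. A replicate block gave 5 calls at 24 h in the ATM knock-out line (4 without it) and 4 between the wtATMIN responses at 24 h and 4 h (5 without it), and left the other counts of called members as they were.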
